A study of Arabidopsis thaliana with 29 samples.

Results

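The comparison described here was between leaves of Arabidopsis thaliana (Col-0) harvested 72 h after a spray with AMF4 (2 libraries) and leaves harvested 24 h after the same spray (2 libraries). These were all the AMF4 libraries at the 2 later times of a series of 29 libraries in 12 groups, in which soil-grown plants were sprayed with AMF4, the related compound AMF1β or abscisic acid (ABA), each at 10 μM, or with the solvent dimethyl sulfoxide (DMSO) alone, and sampled at 6, 24 and 72 h. The DMSO plants at 72 h (1 library) and at 24 h (3 libraries) served as the reference for change without a compound. All plants were 3-week-old wild-type plants in short days. Transcript levels are FPKM (fragments per kilobase of transcript scaled to the mapped fragments of the library), and all 18521 genes that reached 1 FPKM in at least 2 of the 29 libraries were compared, of 33559 in the table. The 24 and 72 h harvests were whole days apart, so that both should fall at one time of day.

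ABA is the hormone that plants make when water runs short. It binds receptors of the PYR/PYL family, the bound receptor blocks type 2C protein phosphatases (PP2Cs), and SnRK2 kinases freed from these phosphatases activate ABF transcription factors, which bind ABA-responsive elements in promoters. The output includes dehydration-protective LEA proteins, proline synthesis and closure of stomata, and genes for the PP2Cs themselves are among those induced, as a brake. AMF4 is a derivative of the synthetic receptor agonist AM1 with fluorine atoms added to its benzyl ring. Leaves also treat many synthetic compounds as xenobiotics: oxidoreductases modify them, glucosyltransferases (UGTs) and glutathione transferases (GSTs) conjugate them, and transporters move the conjugates.

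The libraries themselves were compared first. Depth relative to the median library, recovered from the steps between low FPKM values, was 0.725 and 0.846 in the AMF4 72 h libraries and 0.926 and 1.13 in the AMF4 24 h libraries, and 0.74 to 1.09 in the 4 DMSO libraries. Log2(FPKM + 1) correlated across genes at 0.978 between the 2 AMF4 72 h libraries and at 0.985 between the 2 AMF4 24 h libraries, and at 0.95 to 0.962 between the times. All 5 leaf markers were present in all 8 libraries, with summed levels of 62820 and 47440 FPKM at AMF4 72 h and 42180 and 31580 FPKM at AMF4 24 h. Of 6 root markers 5 were listed at 0 in all 8 libraries, with sums of 0 in both AMF4 72 h libraries and at most 0.248 FPKM elsewhere. Of 9 flower and shoot meristem markers 4 were at 0 throughout, and their sums were 0.365 to 1.28 FPKM. In whole leaves, a change in the share of a cell type and a change of RNA per cell cannot be told apart.

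Evening genes of the circadian clock split the libraries across the labels. ELF4, an evening complex gene, had 0.392 and 6.84 FPKM in the AMF4 72 h libraries, 0.303 and 0 FPKM in the AMF4 24 h libraries, 0.267 FPKM in the DMSO 72 h library and 4.52, 0.208 and 6.62 FPKM in the DMSO 24 h libraries. FKF1, a blue-light receptor gene of the flowering pathway, had 0 and 2.34 FPKM in the AMF4 72 h libraries, 0 FPKM in both AMF4 24 h libraries, 0.0276 FPKM in the DMSO 72 h library and 1.58, 0 and 2.27 FPKM in the DMSO 24 h libraries. AMF4 72 h replicate 2 and DMSO 24 h replicates 1 and 3 thus held evening transcripts that the other 5 libraries nearly lacked. All were far below the 6 h libraries, where ELF4 reached 83.5 to 185 FPKM. The morning gene CCA1 was high throughout, at 214 and 198 FPKM at AMF4 72 h and 155 and 144 FPKM at AMF4 24 h. Of 16 clock genes only GI, a large clock protein that links to flowering, was called, higher at 72 h with 15.2 and 22.4 FPKM in AMF4 72 h leaves and 6.83 and 8.74 FPKM in AMF4 24 h leaves, and this call did not hold without AMF4 72 h replicate 2 or AMF4 24 h replicate 1 (adjusted p of 0.0628 and 0.0869 in limma). In DMSO leaves GI was also higher at 72 h, at 20.5 FPKM against 8.96, 10.9 and 9.74 FPKM at 24 h. The part of the difference in evening genes between libraries in the results below was not tested.

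**Figure D1:**
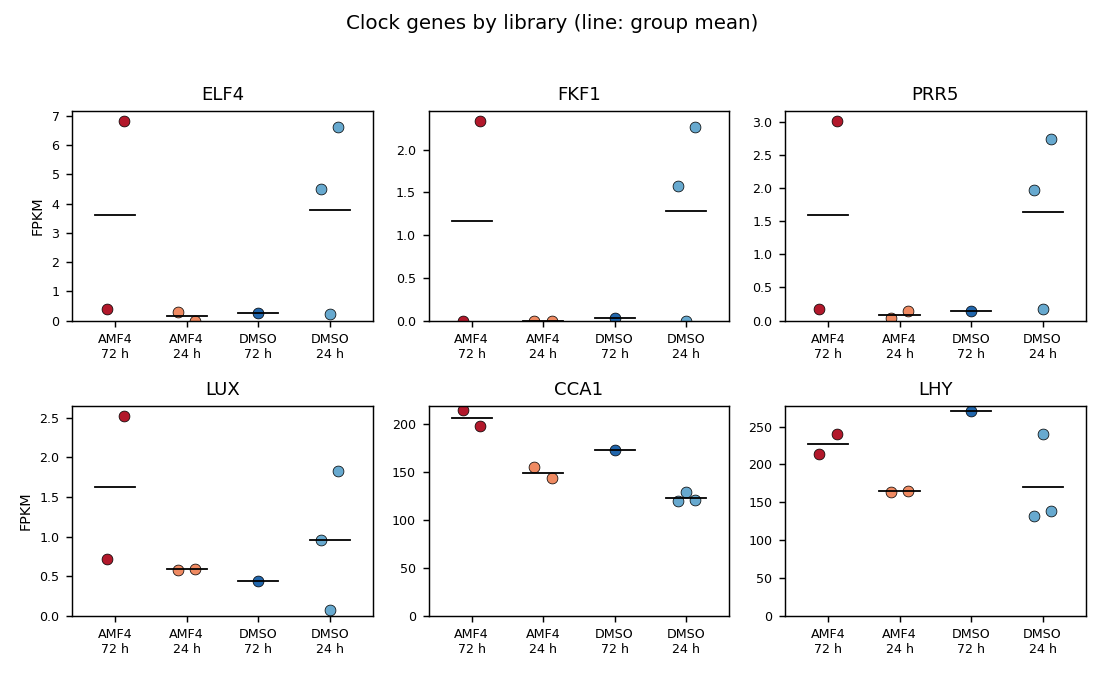
FPKM (vertical axes, linear from 0) of 6 clock genes in the 8 AMF4 and DMSO libraries of 72 and 24 h. Points are libraries and lines group means; ELF4, FKF1 and PRR5 stand high in AMF4 72 h replicate 2 and in DMSO 24 h replicates 1 and 3 and LUX in the first and last of these, while the morning genes CCA1 and LHY are high in all 8.

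Between the AMF4 groups, 427 genes were higher and 254 lower at 72 h than at 24 h. A gene was called at a Benjamini-Hochberg adjusted p under 0.05 and a log2 difference beyond 1 in limma, with the spread estimated over all 12 groups, and all differences below are on the log2(FPKM + 1) scale, which understates the change of low genes. The called genes were 2.31 percent of those tested for the higher and 1.37 percent for the lower ones. In all 427 and all 254, both 72 h libraries lay beyond both 24 h libraries, while over all tested genes the 4 libraries were apart in this way for 5930 higher and 5243 lower. The median difference over all genes was 0.01, with 9541 differences positive and 8830 negative. Of the called genes, 418 of the higher and 246 of the lower code for proteins. The count depended on single libraries: it was 134 without AMF4 72 h replicate 1, 705 without AMF4 72 h replicate 2, 221 without AMF4 24 h replicate 1 and 233 without AMF4 24 h replicate 2, against 681 with all. It was 66 when the spread was estimated from the 4 AMF4 libraries alone. The same 55 higher and 38 lower genes passed in each of these 4 fits.

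Without a compound, 3 genes were called between 72 and 24 h (0.0162 percent of those tested, 1251 at an unadjusted p under 0.05), all higher in the DMSO 72 h library. They were EBP, RL1 and MGP. This comparison had 1 library at 72 h, assumed to vary like the other groups. The DMSO 72 h library lay above all 3 DMSO 24 h libraries for 183 of the 427 genes called higher in AMF4 leaves (42.9 percent, against 23.6 percent of all genes tested), and below all 3 for 53. Of the 254 genes called lower, it lay below all 3 for 158 (62.2 percent, against 22.8 percent of all genes tested) and above for 21. The median change in DMSO leaves was 0.28 for the called higher genes, whose AMF4 median was 1.45, and -0.49 for the called lower genes, whose AMF4 median was -1.36. Over all genes, the AMF4 and the DMSO changes, which share no library, correlated at r = 0.206 (rho = 0.242), and the AMF4 and AMF1β changes at r = 0.609 (rho = 0.614). Genes are not independent, so that these values are descriptions. The DMSO change rests on 1 library at 72 h and the AMF1β change on 2, and the difference between the correlations was not tested.

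**Figure D2:**
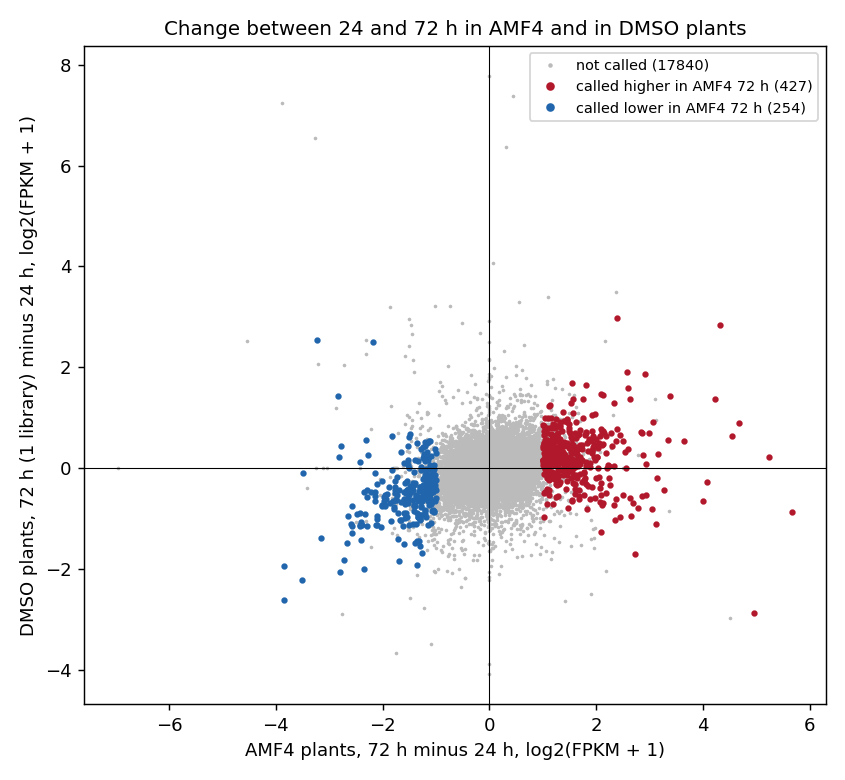
Each point is 1 of 18521 genes, with its 72 h minus 24 h difference in AMF4 plants on the horizontal axis and in DMSO plants on the vertical axis (log2(FPKM + 1)). Red points are the 427 genes called higher and blue points the 254 called lower in AMF4 72 h; most blue points lie below 0 on the DMSO axis, and the red points spread on both sides with 315 of 427 above 0.

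When the AMF4 change was set against the DMSO change in 1 model, 10 genes differed upward (0.054 percent of those tested) and 7 downward (0.0378 percent). At an unadjusted p under 0.05 the model gave 1689 genes in all. The 2 with the largest upward difference carry no symbol. AT4G08555, a protein-coding gene of unstated function, had 588 and 346 FPKM in AMF4 72 h leaves and 8.62 and 7.22 FPKM in AMF4 24 h leaves. In DMSO leaves it was 10.0 FPKM at 72 h and 15.6, 20.1 and 22.3 FPKM at 24 h. Its AMF4 change of 5.67 ± 0.65 (SE; adjusted p = 5.89e-05 in limma) was the largest rise of all genes tested, and it exceeded the DMSO change by 6.54 ± 0.99 (adjusted p = 0.00929 in limma). AT2G41730 had 339 and 401 FPKM in AMF4 72 h leaves and 5.94 and 12.8 FPKM in AMF4 24 h leaves. The 4 DMSO libraries held 4.23 to 13.4 FPKM. Its change of 5.24 ± 0.62 exceeded that of DMSO by 5.01 ± 0.95 (adjusted p = 0.0488 in limma). Its relative AT5G24640 was also called higher, with 6.76 and 15.5 FPKM in AMF4 72 h leaves and 0 and 0.39 FPKM in AMF4 24 h leaves, and reads may be split between the 2. RAP2.9, an ethylene response factor gene, had 3.40 and 3.72 FPKM in AMF4 72 h leaves and 0 and 0.128 FPKM in AMF4 24 h leaves, with 1.74 FPKM in the DMSO 72 h library and 4.38 to 7.39 FPKM in the DMSO 24 h libraries, so that its excess over DMSO (3.36 ± 0.59, adjusted p = 0.0488 in limma) joins a rise with AMF4 and a lower level without it. The count of 17 ranged between 1 and 18 under the alternatives to this fit. DOGT1 and AT2G36792, described with their array below, were called in 17 of 18 alternatives each, AT4G08555 in 16 and RAP2.9 in 8, and no other of the 17 in more than 6. AT4G12735, likewise without a symbol, was called higher between the AMF4 times but was not among the 17. It had 108 and 142 FPKM in AMF4 72 h leaves and 2.83 and 6.35 FPKM in AMF4 24 h leaves.

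Detoxification genes were among those that rose. Of 22 measured members of the xenobiotic list, 10 were called higher and 2 lower, with a median difference of 1.05 in AMF4 leaves, -0.26 in DMSO leaves and 0.18 in AMF1β leaves. Set against DMSO at the same time, the median was 1.37 at 72 h and 0.23 at 24 h, values that share the AMF4 and DMSO libraries of the time comparisons. DOGT1 (UGT73C5, AT2G36800), which glucosylates brassinosteroids and the mycotoxin deoxynivalenol, had 174 and 126 FPKM in AMF4 72 h leaves and 7.93 and 8.79 FPKM in AMF4 24 h leaves. The DMSO libraries had 4.65 FPKM at 72 h and 8.55, 5.47 and 10.1 FPKM at 24 h, so that of these 8 only the AMF4 72 h libraries stood apart. Its change was 3.99 ± 0.35 (adjusted p = 1.92e-06 in limma) and exceeded the DMSO change by 4.64 ± 0.54 (adjusted p = 0.000447 in limma). In AMF1β leaves at 72 h DOGT1 had 88.3 and 30.7 FPKM, with a change of 1.73 that was not tested on its own.

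OPR1, an oxophytodienoate reductase of the old yellow enzyme family, had 315 and 342 FPKM in AMF4 72 h leaves and 56.1 and 57.8 FPKM in AMF4 24 h leaves, a difference of 2.51 ± 0.42 (adjusted p = 0.00165 in limma). The 4 DMSO libraries held 41.6 to 67.3 FPKM, close to AMF4 at 24 h. UGT74E2, which glucosylates indole-3-butyric acid, had 118 and 139.9 FPKM in AMF4 72 h leaves and 14.9 and 19.0 FPKM in AMF4 24 h leaves, against 0.469 to 2.53 FPKM in the DMSO libraries, so that it was already above DMSO at 24 h. Its call did not hold without any 1 of the 4 AMF4 libraries (adjusted p of 0.0704 to 0.125 in limma). GSTU1, a tau-class glutathione transferase, had 27.6 and 22.6 FPKM in AMF4 72 h leaves and 3.66 and 2.47 FPKM in AMF4 24 h leaves, and its change exceeded that of DMSO by 3.39 ± 0.66 (adjusted p = 0.0488 in limma). UGT75B1, which forms glucose esters, had 59.3 and 50.2 FPKM in AMF4 72 h leaves and 10.9 and 7.65 FPKM in AMF4 24 h leaves, with an excess over DMSO of 3.41 ± 0.65 (adjusted p = 0.0488 in limma). The cytochrome P450 genes CYP81D8 and CYP81D11 and the auxin transporter gene ABCB4 were called with differences of 2.12, 2.25 and 1.99, but with 1 AMF4 library left out CYP81D8 and ABCB4 were called in none of the 4 fits and CYP81D11 in 1 (adjusted p of 0.0336 to 0.362 in limma over the 3 genes). With 1 AMF4 library left out, 4 or 5 of the 10 higher members of the list were still called.

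GSTF6 and GSTF7, phi-class glutathione transferase genes also known from salicylate responses, went the other way. GSTF6 had 34.6 and 47.0 FPKM in AMF4 72 h leaves and 191 and 231 FPKM in AMF4 24 h leaves (-2.35 ± 0.49). DMSO leaves held 99.1 FPKM at 72 h and 133 to 143 FPKM at 24 h. GSTF7 had 23.1 and 28.9 FPKM in AMF4 72 h leaves and 92.0 and 149.9 FPKM in AMF4 24 h leaves. The 2 genes are near-identical neighbours, so that reads may be split between them, and with 1 AMF4 library left out GSTF7 was called in none and GSTF6 in 2 of the 4 fits, lost without AMF4 72 h replicate 1 (adjusted p = 0.107 in limma) and AMF4 24 h replicate 2 (adjusted p = 0.0733 in limma).

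Many of these genes lie in arrays of copies, of which some were called and others not. In the UGT73C array on chromosome 2 (TAIR10.1, from UGT73C1 at 15410376-15412064 to DOGT1 at 15423172-15425129), UGT73C1 had 21.5 and 30.3 FPKM in AMF4 72 h leaves and 3.18 and 3.41 FPKM in AMF4 24 h leaves. UGT73C2 next to it was listed at 0 in all 8 libraries. AT2G36770 and AT2G36780 stayed under 2 FPKM and were not called, with differences of 0.20 and 0.84. UGT73C6, a flavonol glucosyltransferase gene, had 0.993 and 1.57 FPKM in AMF4 72 h leaves and 0 and 0.143 FPKM in AMF4 24 h leaves and was called (1.08 ± 0.22). The antisense gene AT2G36792 spans it on the other strand and had 55.1 and 61.3 FPKM in AMF4 72 h leaves and 2.56 and 2.47 FPKM in AMF4 24 h leaves; without stated strandedness, reads of the 2 cannot be told apart.

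In the array of GSTU1 to GSTU7 on chromosome 2 (12617936-12632538), only the end genes were called, and differences between copies were not tested. GSTU7 had 154 and 175 FPKM in AMF4 72 h leaves and 32.2 and 31.6 FPKM in AMF4 24 h leaves, and GSTU1 is given above. GSTU5, the most abundant copy, had 417 and 477 FPKM in AMF4 72 h leaves and 325 and 229 FPKM in AMF4 24 h leaves, a difference of 0.71 that was not called. GSTU4 had 6.22 and 6.48 FPKM in AMF4 72 h leaves and 14.9 and 23.3 FPKM in AMF4 24 h leaves, a difference of -1.42 that was not called, while GSTU3 and GSTU2 were below the filter. In the UGT73B array on chromosome 4 (16343057-16350203) all 3 genes rose: UGT73B3, UGT73B2, which encodes a flavonol glucosyltransferase, and UGT73B1, by 1.89, 2.56 and 2.65. UGT73B1 had 30.3 and 17.6 FPKM in AMF4 72 h leaves and 2.91 and 2.79 FPKM in AMF4 24 h leaves. Over the UGT73 genes found by symbol, a list made after the values were seen, 6 of 8 measured genes were called higher and none lower. AT2G36770 and AT2G36780 of the UGT73C array carry no such symbol and are not in this list. With 1 AMF4 library left out, 3 to 5 of the 6 were called: UGT73B3 in none of the 4 fits (adjusted p of 0.0503 to 0.237 in limma), UGT73C6 in 2, and UGT73B1 and UGT73B2 in all but that without AMF4 72 h replicate 1 (adjusted p of 0.0692 and 0.0512 in limma).

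**Figure D3:**
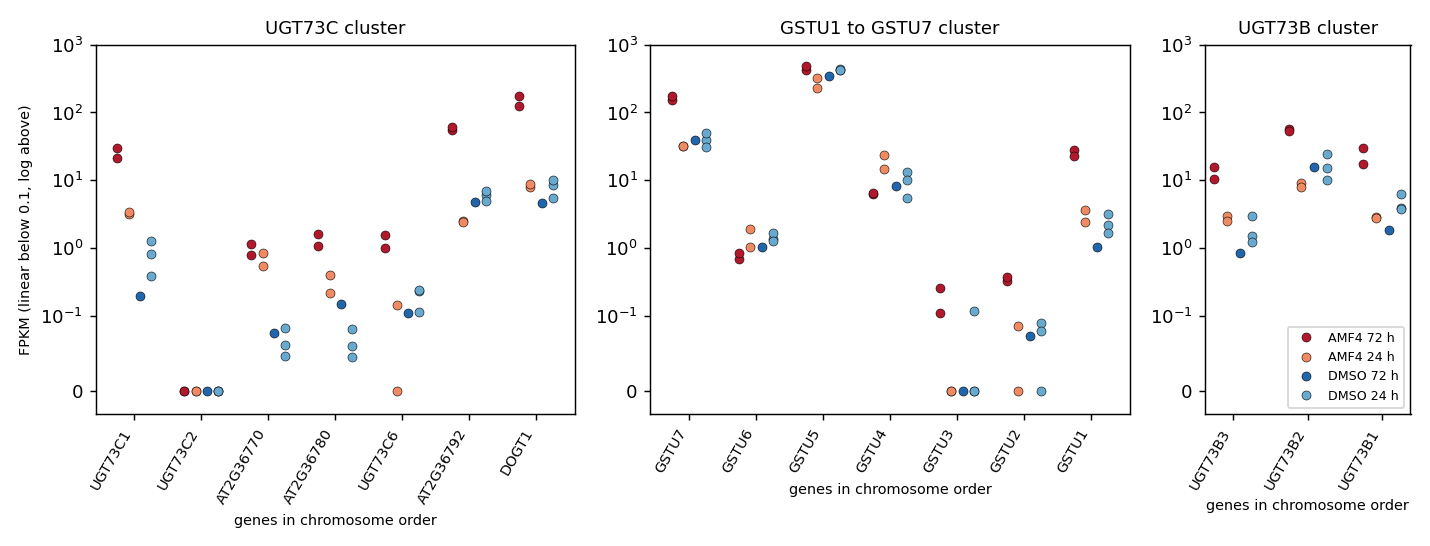
FPKM (vertical axes, linear below 0.1 and log above) of the genes of 3 arrays in their order on the chromosome, with a point per library. The AMF4 72 h libraries stand above the other 6 at UGT73C1, AT2G36792, DOGT1, GSTU7, GSTU1 and the 3 UGT73B genes, while GSTU4 lies lower at AMF4 72 h than at AMF4 24 h and UGT73C2 is at 0 in all.

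The as-1 core TGACG, bound by TGA factors and known from promoters of detoxification genes, was searched on both strands of the 250 bases before each start. It was present in 9 of the 22 xenobiotic genes (40.9 percent) and 5 of the 8 genes of the UGT73 list (62.5 percent). Over the 18352 tested genes with a promoter the share was 19.4 percent, and over the 427 called higher genes it was 19.7 percent. The windows of OPR1, UGT74E2, AT4G08555 and AT2G41730, which also rose, held no TGACG. A match is a description of letters only. The windows of 3 genes that rose are shown because each had the largest change of the protein-coding genes in its array; sequences are from RefSeq on TAIR10.1, 5′ to 3′ on the strand of the gene, with capitals marking matches to the motifs searched (TGACG in all 3, and in GSTU1 also GTCGGC, the reverse complement of the drought-responsive element core GCCGAC). DOGT1 is chr2:15425130-15425379, UGT73B1 chr4:16350204-16350453 and GSTU1 chr2:12632539-12632788, all on the minus strand.
DOGT1: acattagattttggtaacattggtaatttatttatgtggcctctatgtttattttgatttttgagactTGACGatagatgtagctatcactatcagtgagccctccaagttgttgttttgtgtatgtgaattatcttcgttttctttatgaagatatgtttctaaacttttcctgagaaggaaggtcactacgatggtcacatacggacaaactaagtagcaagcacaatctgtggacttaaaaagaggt
UGT73B1: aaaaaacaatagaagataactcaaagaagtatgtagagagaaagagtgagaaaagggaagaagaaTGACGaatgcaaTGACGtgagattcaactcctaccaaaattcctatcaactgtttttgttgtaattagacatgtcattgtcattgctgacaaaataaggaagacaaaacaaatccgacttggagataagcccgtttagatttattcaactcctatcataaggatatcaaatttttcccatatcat
GSTU1: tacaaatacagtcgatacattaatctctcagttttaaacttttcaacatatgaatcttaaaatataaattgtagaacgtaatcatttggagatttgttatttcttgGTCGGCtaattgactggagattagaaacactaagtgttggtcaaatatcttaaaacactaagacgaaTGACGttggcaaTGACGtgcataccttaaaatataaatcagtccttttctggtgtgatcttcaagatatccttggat

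**Figure D4:**
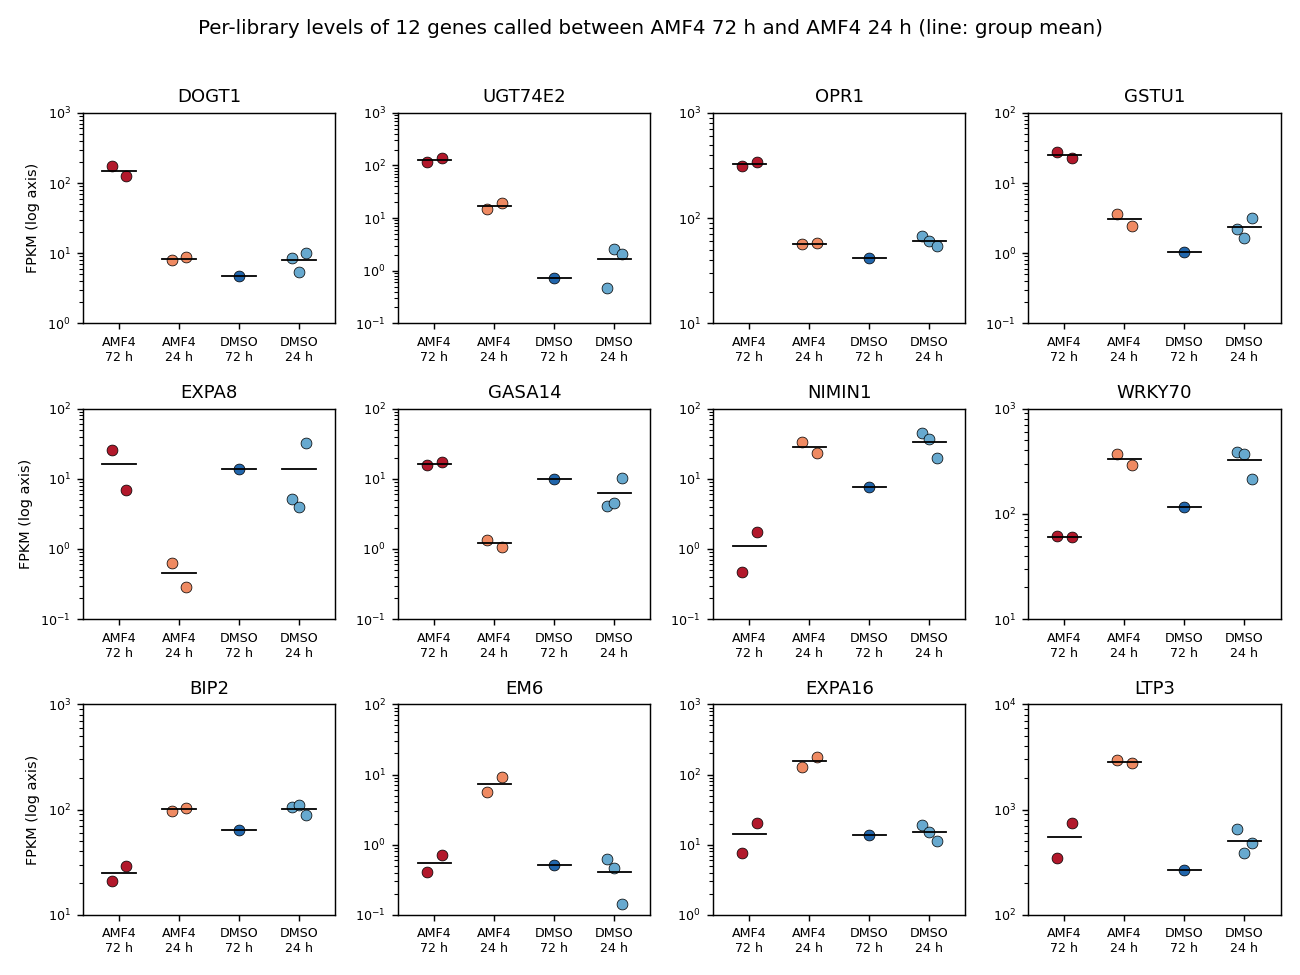
FPKM (log axes) of 12 genes called between AMF4 72 h and AMF4 24 h, with a point per library and a line at the group mean; the DMSO 72 h group is 1 library. Among these 8 libraries, DOGT1, OPR1 and GSTU1 are high only at AMF4 72 h, EXPA8 and GASA14 are low only at AMF4 24 h, EM6, EXPA16 and LTP3 are high only at AMF4 24 h, and NIMIN1, WRKY70 and BIP2 are lowest at AMF4 72 h with the DMSO 72 h library below all DMSO 24 h libraries.

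Some of the genes that rose had been below every DMSO library at AMF4 24 h. EBP (RAP2.3), an ethylene response factor of the group that senses oxygen, had 1226 and 761 FPKM in AMF4 72 h leaves and 47.0 and 48.0 FPKM in AMF4 24 h leaves. The DMSO 72 h library held 495 FPKM and the DMSO 24 h libraries 61.0, 58.2 and 90.1 FPKM. It was the only gene called higher in both the AMF4 (4.32 ± 0.39) and the DMSO comparison (2.84), and its difference between them, 1.48 ± 0.60, was not called (adjusted p = 0.444 in limma). GASA14, a gibberellin-regulated peptide gene, had 15.5 and 17.3 FPKM in AMF4 72 h leaves and 1.33 and 1.08 FPKM in AMF4 24 h leaves. The 4 DMSO libraries held 4.08 to 10.3 FPKM. AT1G22690, a gibberellin-regulated protein gene expressed in guard cells, had 27.5 FPKM in both AMF4 72 h libraries and 1.98 and 2.37 FPKM in AMF4 24 h leaves (3.17 ± 0.38, adjusted p = 8.44e-05 in limma), below the 28.9 to 66.1 FPKM of the DMSO libraries.

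Wall and growth genes were mixed. Of 22 measured expansins and xyloglucan hydrolases of a list, 2 were called higher and 1 lower, with a median of 0.73 in AMF4 and 0.08 in DMSO leaves. The list leaves out other members of these families, among them EXPA16, called lower and described below. EXPA8, an expansin that loosens cell walls, had 26.1 and 6.86 FPKM in AMF4 72 h leaves and 0.62 and 0.283 FPKM in AMF4 24 h leaves. In DMSO leaves it was 14.0 FPKM at 72 h and 3.97 to 32.9 FPKM at 24 h. It was called in only 1 of the 4 fits that left out an AMF4 library, that without AMF4 72 h replicate 2. The xyloglucan hydrolase gene XTH4 was called higher at 148 and 90.6 FPKM in AMF4 72 h leaves and 33.9 and 12 FPKM in AMF4 24 h leaves, and lost its call without any 1 AMF4 library (adjusted p of 0.0699 to 0.347 in limma). EXPA4 was called lower (-1.77 ± 0.41) at 3.99 and 10.7 FPKM in AMF4 72 h leaves and 35.7 and 17.6 FPKM in AMF4 24 h leaves, lost without AMF4 72 h replicate 1 or AMF4 24 h replicate 1 (adjusted p of 0.239 and 0.173 in limma). CWLP, a proline-rich wall protein gene, had 343 and 119.8 FPKM in AMF4 72 h leaves and 17 and 20 FPKM in AMF4 24 h leaves, lost without AMF4 72 h replicate 1 (adjusted p = 0.0879 in limma). IAA7, a repressor gene, rose by 1.83 ± 0.32. It was the only call among 12 measured auxin response genes of the IAA and GH3 families (more were called without AMF4 72 h replicate 2), and other auxin response families were not listed. ARR15, the only call among 8 type-A cytokinin response regulator genes, rose by 2.28 ± 0.62. Without AMF4 72 h replicate 1 both were lost (adjusted p of 0.0635 and 0.363 in limma), and ARR15 was called only in the fit without AMF4 72 h replicate 2.

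EXPA16 showed the opposite pattern. It had 7.65 and 20.4 FPKM in AMF4 72 h leaves and 129 and 178 FPKM in AMF4 24 h leaves, while all 4 DMSO libraries held 11.3 to 19.2 FPKM. Of these 8 libraries, only the AMF4 24 h ones stood high. AMF1β leaves had 38.9 and 16.5 FPKM of EXPA16 at 72 h and 99.8, 109.4 and 139 FPKM at 24 h, so that there too both 72 h libraries lay below all 24 h ones. Its change of -3.49 ± 0.41 (adjusted p = 7.05e-05 in limma) differed from the DMSO change by -3.39 ± 0.62 (adjusted p = 0.0488 in limma), and it was called without each of the 4 AMF4 libraries in turn.

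Other named genes with large rises also lost their call in some or all of the fits that left out 1 AMF4 library. PORB, protochlorophyllide oxidoreductase of chlorophyll synthesis, had 14.9 and 71.2 FPKM in AMF4 72 h leaves and 2.83 and 2.94 FPKM in AMF4 24 h leaves, and the defensin-like gene LCR69 had 26.8 and 60.9 FPKM in AMF4 72 h leaves and 3.97 and 4.92 FPKM in AMF4 24 h leaves. In both, the higher 72 h library was replicate 2, and the DMSO 24 h replicates 1 and 3 (31.8 and 90.7 FPKM for PORB, 35.8 and 44.2 FPKM for LCR69) were above replicate 2 (7.41 and 7.02 FPKM), as for the evening clock genes. Of the germin-like protein gene GER3, AMF4 72 h leaves held 26.2 and 13.5 FPKM and AMF4 24 h leaves 0 and 0.111 FPKM. The defence genes THI2.2 (a thionin) and PDF1.2 (a plant defensin with near-identical copies) were called higher by 2.78 and 2.73, and their AMF4 72 h levels of 42.3 and 14.4 FPKM and of 28.9 and 24.0 FPKM were within or below the range of the DMSO 24 h libraries (12 to 35.5 and 37.3 to 110.1 FPKM) apart from 1 THI2.2 library. CP1 (AT5G49480), a calcium-binding protein gene, had 555 and 625 FPKM in AMF4 72 h leaves and 86.8 and 50.1 FPKM in AMF4 24 h leaves. The 4 DMSO libraries held 139 to 180.5 FPKM. The precursor gene of the microRNA miR157c was listed at 21.1 and 43.2 FPKM in AMF4 72 h leaves and at 0 in AMF4 24 h leaves. It was at 0 in the DMSO 72 h library and at 20.9, 0 and 17 FPKM in the DMSO 24 h libraries, and its call did not hold without any 1 AMF4 library (adjusted p of 0.156 to 0.187 in limma). PORB, LCR69 and GER3 were called in none of the 4 fits that left out an AMF4 library. Of the 15 named genes with the largest rise, DOGT1, EBP, GASA14 and GSTU1 were called without each AMF4 library in turn.

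Core ABA signalling genes held 1 call between the times. Of 8 measured receptor genes 1 was called higher, PYL4, with 15.5 and 14.0 FPKM in AMF4 72 h leaves and 4.66 and 6.91 FPKM in AMF4 24 h leaves, below the 28.1 to 45.9 FPKM of the DMSO libraries. All 8 had positive differences (0.25 to 1.23), and PYL4 was not called without any 1 AMF4 library (adjusted p of 0.0708 to 0.227 in limma). None of the 7 measured clade A PP2C genes was called, and all 7 had negative differences (-0.72 to -0.07). HAI1, a PP2C gene strongly induced by ABA, had 120.4 and 103 FPKM in AMF4 72 h leaves and 189.7 and 179 FPKM in AMF4 24 h leaves, while the DMSO libraries held 7.95 to 16.5 FPKM. PP2CA had 243 and 286 FPKM in AMF4 72 h leaves and 396 and 406 FPKM in AMF4 24 h leaves. DMSO leaves held 87.5 to 159 FPKM. Both genes thus stood above every DMSO library at both times. No gene of 5 SnRK2 kinases, 6 of ABA synthesis and release or 5 of ABA catabolism was called, while 2 of the 6 were called lower without AMF4 72 h replicate 2.

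Among 11 ABA response genes followed by the study, 1 was called, lower, and the median difference was -0.74 (0.01 in DMSO leaves); these genes were chosen on these samples and are not independent evidence of a direction. RD26, a NAC transcription factor gene of dehydration responses, had 25.0 and 24.7 FPKM in AMF4 72 h leaves and 66.1 and 55.0 FPKM in AMF4 24 h leaves (-1.25 ± 0.34, adjusted p = 0.0305 in limma). The call did not hold without any 1 AMF4 library (adjusted p of 0.0936 to 0.191 in limma). RD29B, a dehydration-induced gene with ABA-responsive elements, had 20.4 and 28.4 FPKM in AMF4 72 h leaves and 104 and 64.7 FPKM in AMF4 24 h leaves, and did not pass (-1.73 ± 0.53, adjusted p = 0.0517 in limma). The DMSO libraries held 2.35 to 4.93 FPKM, so that RD29B was above DMSO at both times. RAB18, a dehydrin gene, had 445 and 348 FPKM in AMF4 72 h leaves and 477 and 433 FPKM in AMF4 24 h leaves. DMSO leaves held 46.0 to 79.9 FPKM. P5CS1, the proline synthesis enzyme gene, had 211 and 194 FPKM in AMF4 72 h leaves and 400.1 and 308 FPKM in AMF4 24 h leaves. DMSO leaves held 47.2 to 84.6 FPKM. NCED3, the ABA synthesis enzyme gene of drought, had 1.19 and 3.53 FPKM in AMF4 72 h leaves and 4.04 and 5.21 FPKM in AMF4 24 h leaves, and MYB60, a guard cell regulator gene, 3.36 and 3.35 FPKM in AMF4 72 h leaves and 1.58 and 1.92 FPKM in AMF4 24 h leaves. Neither was called. Of 19 ABA-related transcription regulators, HB5, a homeodomain factor gene, was called higher (1.76 ± 0.29) and RD26 lower.

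Of 20 dehydration markers and LEA genes 17 had negative differences and 1, EM6, was called. This count was 5 after quantile normalization, 2 with median-of-ratios scaling and 4 without AMF4 72 h replicate 2, all lower. EM6 encodes a LEA protein of late seed development. It had 0.403 and 0.701 FPKM in AMF4 72 h leaves and 5.72 and 9.09 FPKM in AMF4 24 h leaves. The 4 DMSO libraries held 0.143 to 0.634 FPKM. The change of -2.41 ± 0.32 (adjusted p = 0.000244 in limma) differed from the DMSO change by -2.53 ± 0.48 (adjusted p = 0.0488 in limma), and AMF4 72 h leaves overlapped the DMSO range. AT5G45690, a gene without a symbol that was also called against DMSO, had 0.235 and 1.28 FPKM in AMF4 72 h leaves and 8.83 and 12.4 FPKM in AMF4 24 h leaves. The 4 DMSO libraries held 0 to 0.637 FPKM. LTP3, a lipid transfer protein gene, had 348 and 746 FPKM in AMF4 72 h leaves and 2959.7 and 2757 FPKM in AMF4 24 h leaves. DMSO leaves held 265 to 649 FPKM. Its call did not hold without AMF4 72 h replicate 1 or AMF4 24 h replicate 1 (adjusted p of 0.123 and 0.0529 in limma). The neighbouring LTP4 had 211 and 271 FPKM in AMF4 72 h leaves and 1266 and 784 FPKM in AMF4 24 h leaves, and was not called (adjusted p = 0.109 in limma). The small heat shock protein genes HSP17.6II, HSP17.6A and HSP17.4 were called lower, with differences of -2.38, -2.14 and -2.31. They were the only calls among the 12 measured genes of the heat shock list, which leaves out other heat shock genes such as HSFA6A. HSP17.6II was called without each AMF4 library in turn, HSP17.4 in 2 of the 4 fits and HSP17.6A in none.

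ABA-responsive elements (ACGTGGC or ACGTGTC, both of which can overlap the G-box CACGTG) were present in 18.2 percent of the 253 called lower genes with a promoter, 6.32 percent of the 427 called higher genes and 7.62 percent of all tested genes. The G-box was present in 14.6, 9.37 and 7.57 percent in the same order, and TGACG in 24.5, 19.7 and 19.4 percent. The drought-responsive cores ACCGAC and GCCGAC were in 4.74 percent each of the lower genes and in 5.35 and 2.98 percent of all genes. The evening element AAAATATCT was in 4.45 percent of the higher, 2.37 percent of the lower and 2.57 percent of all genes. The telo box AAACCCTA and the I-box GGATAA were in 2.77 and 17.4 percent of the lower genes and 3.61 and 13.4 percent of all. The window of EM6 (chr2:16780369-16780618, minus strand) is shown as the called gene of the LEA list; capitals mark GACACGTGGC, which joins the 2 ABA-responsive forms and the G-box, and CGTCA, the reverse complement of TGACG.
EM6: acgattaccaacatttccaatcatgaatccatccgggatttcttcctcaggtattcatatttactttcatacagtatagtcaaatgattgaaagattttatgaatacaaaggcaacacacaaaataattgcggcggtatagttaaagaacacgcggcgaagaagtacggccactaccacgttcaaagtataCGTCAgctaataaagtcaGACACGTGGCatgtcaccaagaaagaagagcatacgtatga

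Folding genes of the endoplasmic reticulum fell together. The list was made after the values were seen and is a description: 15 of 19 measured members were called lower and none higher, with a median of -1.74 in AMF4 leaves, -0.62 in DMSO leaves and -1.004 in AMF1β leaves. The DMSO 72 h library, a single one, lay below all 3 DMSO 24 h libraries for 19 of 19, against 22.8 percent of all genes tested. The chaperone gene BIP2 had 21.0 and 29.1 FPKM in AMF4 72 h leaves and 96.8 and 104 FPKM in AMF4 24 h leaves. DMSO leaves held 64.5 FPKM at 72 h and 106, 111 and 88.2 FPKM at 24 h. Its change in AMF4 leaves was -1.98 ± 0.31 (adjusted p = 0.00105 in limma), and the difference from the DMSO change, -1.33 ± 0.47, was not called (adjusted p = 0.35 in limma). AMF4 24 h levels were within the DMSO 24 h range, and AMF4 72 h levels were below every other library. BIP1 is a near-identical copy, with 35.8 and 52.0 FPKM in AMF4 72 h leaves and 134 and 164 FPKM in AMF4 24 h leaves. CNX1, the lectin chaperone calnexin, had 36.8 and 49.7 FPKM in AMF4 72 h leaves and 151 and 202 FPKM in AMF4 24 h leaves (-2.01 ± 0.27), and the DMSO libraries 84.7 FPKM at 72 h and 136 to 158 FPKM at 24 h.

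The protein disulphide isomerase gene PDIL1-2 had 7.75 and 16.3 FPKM in AMF4 72 h leaves and 57.8 and 72.7 FPKM in AMF4 24 h leaves (-2.42 ± 0.37, adjusted p = 0.000883 in limma). BIP3, the stress-induced BiP, had 2.05 and 3.42 FPKM in AMF4 72 h leaves and 13.5 and 25.5 FPKM in AMF4 24 h leaves. Its call did not hold without any 1 AMF4 library (adjusted p of 0.0505 to 0.213 in limma). ERO2, an oxidase that recharges the isomerases, had 3.52 and 4.70 FPKM in AMF4 72 h leaves and 4.48 and 4.28 FPKM in AMF4 24 h leaves and did not pass. Between 12 and 15 members of the list were called when 1 AMF4 library was left out, and none was called in the difference between AMF4 and DMSO changes. The G-box was in 7 of the 19 windows (36.8 percent) and TGACG in 9 (47.4 percent). The windows of PDIL1-2 (chr1:29126398-29126647, plus strand) and BIP3 (chr1:2931851-2932100, minus strand), the 2 members with the largest fall, hold TGACG, the G-box and the I-box on one strand or the other, in capitals, and BIP3 also ACGTGTC.
PDIL1-2: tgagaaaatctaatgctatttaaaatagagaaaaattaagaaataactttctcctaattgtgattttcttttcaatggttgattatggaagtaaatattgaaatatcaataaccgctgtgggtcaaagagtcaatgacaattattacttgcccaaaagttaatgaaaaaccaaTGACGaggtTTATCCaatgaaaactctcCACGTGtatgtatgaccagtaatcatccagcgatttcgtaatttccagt
BIP3: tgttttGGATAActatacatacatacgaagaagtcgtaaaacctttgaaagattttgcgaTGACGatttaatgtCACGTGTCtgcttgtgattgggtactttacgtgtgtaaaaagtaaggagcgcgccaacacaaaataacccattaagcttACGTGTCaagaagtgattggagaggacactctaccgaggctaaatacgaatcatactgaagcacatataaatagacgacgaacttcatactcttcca

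Among salicylate and defence genes, 5 of 16 measured members were called lower in AMF4 leaves (EDS1, WRKY70, NIMIN1, WRKY38 and ALD1) and none higher, with medians of -0.46 in AMF4, -0.66 in DMSO and -1.01 in AMF1β leaves. NIMIN1, whose protein binds the salicylate receptor NPR1, had 0.468 and 1.74 FPKM in AMF4 72 h leaves and 33.3 and 23.3 FPKM in AMF4 24 h leaves. The DMSO 72 h library held 7.55 FPKM and the DMSO 24 h libraries 44.3, 36.9 and 19.8 FPKM, so that both sets were lower at 72 h. The AMF4 change was -3.85 ± 0.68 (adjusted p = 0.00219 in limma), the DMSO change -1.95, and their difference of -1.90 ± 1.03 was not called (adjusted p = 0.603 in limma). Without AMF4 72 h replicate 1 the AMF4 call did not hold (adjusted p = 0.0602 in limma). WRKY70, a transcription factor gene between salicylate and jasmonate responses, had 61.5 and 60.2 FPKM in AMF4 72 h leaves and 367 and 290.5 FPKM in AMF4 24 h leaves. The DMSO 72 h library held 116 FPKM and the DMSO 24 h libraries 212 to 388 FPKM. WRKY70 lost its call without any 1 AMF4 library (adjusted p of 0.0618 to 0.13 in limma). UGT76B1, which glucosylates isoleucic acid and salicylate, had 0.0666 and 0.948 FPKM in AMF4 72 h leaves and 13.2 and 18.1 FPKM in AMF4 24 h leaves. In DMSO leaves it was 1.02 FPKM at 72 h and 5.16 to 13.9 FPKM at 24 h.

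Other large falls belong here by name rule rather than by list, except WRKY38. WRKY38 and WRKY70 are members of both the salicylate list and the WRKY list that follows. WRKY38 and WRKY54 had changes of -3.16 and -2.72, and 6 of 48 measured WRKY genes were called lower and none higher (a list made after the values were seen), of which 1 or 2 were still called with an AMF4 library left out. Also lower were NUDT6, a Nudix hydrolase gene of defence (-2.80), the receptor-like protein gene RLP38 (-2.43), the ribonuclease gene RNS1 (-3.84), the pyrimidine breakdown gene PYD4 (-2.81), GASA5 (-2.58), the signalling peptide gene CLE20 (-2.84) and CPuORF10 (-3.23), a short reading frame that overlaps the transcript of a polyamine synthesis gene and is uncertain for that reason. With 1 AMF4 library left out, WRKY54, RLP38, CLE20 and CPuORF10 were called in none of the 4 fits and PYD4 and GASA5 in 1. RNS1 had 0.126 and 3.34 FPKM in AMF4 72 h leaves and 51.3 and 18.2 FPKM in AMF4 24 h leaves. DMSO leaves held 3.52 FPKM at 72 h and 21.7 to 31.4 FPKM at 24 h. PYD4 had 0.466 and 5.33 FPKM in AMF4 72 h leaves and 21.4 and 19.4 FPKM in AMF4 24 h leaves, the 24 h values being above the 0.866 to 5.36 FPKM of DMSO leaves. Of the 15 named genes with the largest fall, UGT76B1, EXPA16, WRKY38 and PDIL1-2 were called without each AMF4 library in turn. Of the 5 lower members of the salicylate list, 1 or 2 were called with an AMF4 library left out.

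**Figure D5:**
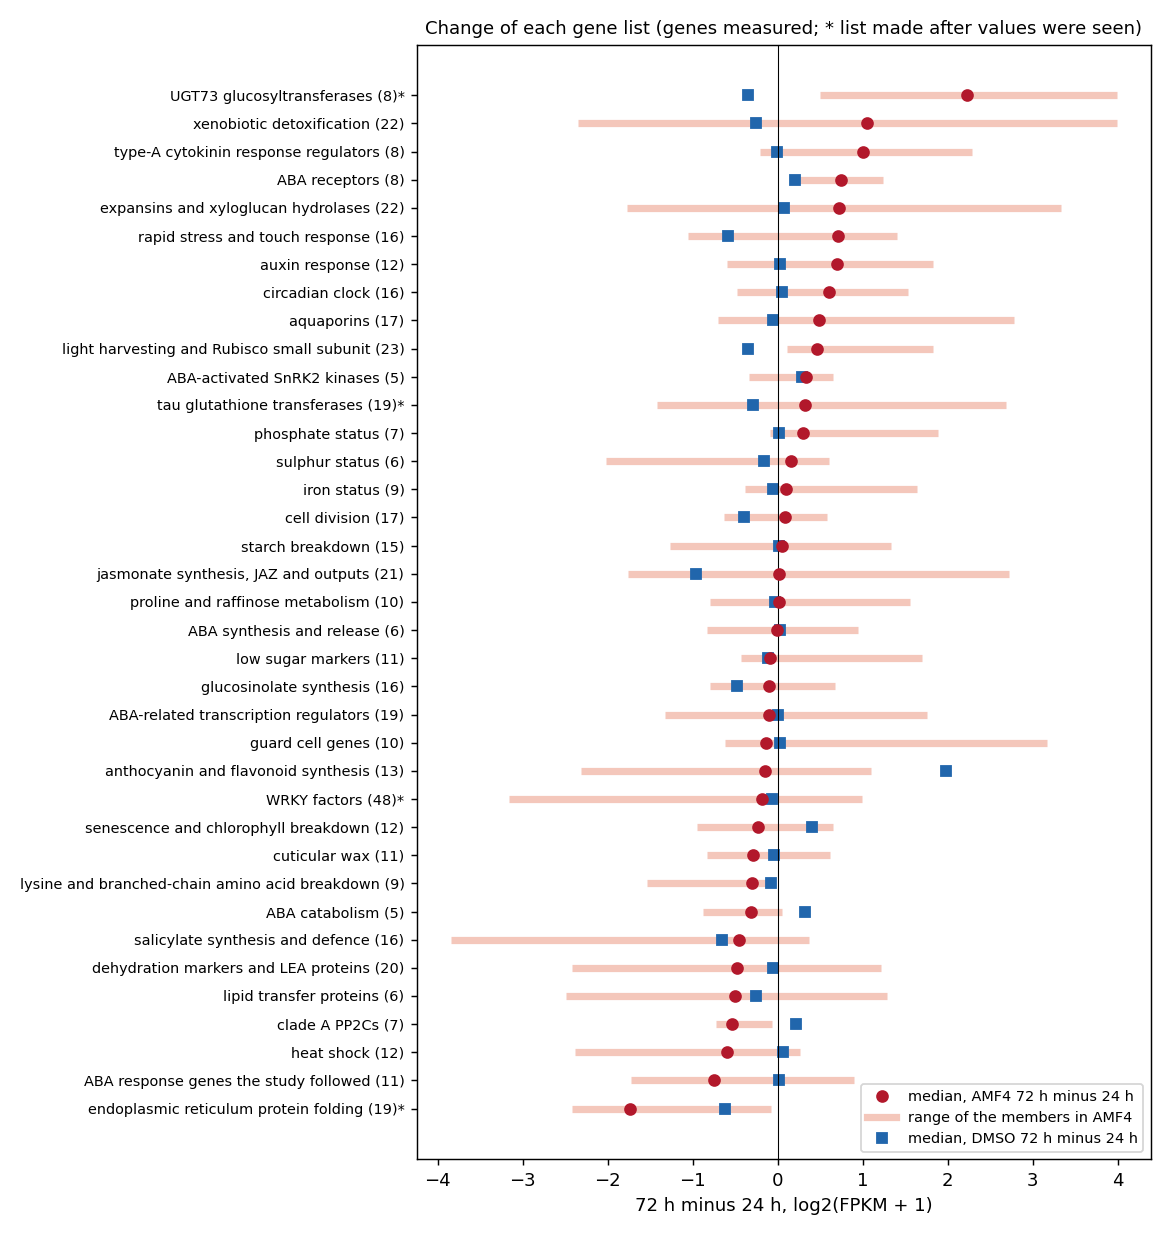
Gene lists in order of their median 72 h minus 24 h difference in AMF4 plants (horizontal axis, log2(FPKM + 1)). Circles are AMF4 medians, bars the range of the members and squares DMSO medians; the UGT73 and xenobiotic lists are highest (2.22 and 1.05) with DMSO medians below 0, the folding list is lowest (-1.74), and the anthocyanin list has the largest DMSO median (1.98) beside an AMF4 median of -0.15.

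Most other lists held 1 call or none. Of 13 anthocyanin and flavonoid genes none was called, and the DMSO 72 h library lay above all DMSO 24 h libraries for 13 of 13. Over all genes tested this 1 library lay above them for 23.6 percent and below them for 22.8 percent. LDOX, an enzyme gene of anthocyanin synthesis, had 0 and 5.30 FPKM in AMF4 72 h leaves and 6.83 and 18.6 FPKM in AMF4 24 h leaves. The DMSO 72 h library held 27.7 FPKM and the DMSO 24 h libraries 1.16 to 9.70 FPKM. The AMF4 libraries of 1 group differed widely for these genes (TT19, a pigment transport gene, had 3.52 and 33.4 FPKM at 72 h). All 23 light harvesting and Rubisco small subunit genes had positive differences with a median of 0.46 (-0.34 in DMSO leaves), and none was called. Of 16 rapid stress and touch genes 15 were positive with a median of 0.71 (-0.58 in DMSO leaves), and none was called. Of 21 jasmonate genes JAZ6, a repressor gene of jasmonate signalling, and PDF1.2 were called higher, each in 1 of the 4 fits that left out an AMF4 library and neither after quantile normalization, where 1 gene of the list was called lower, and the DMSO 72 h library lay below all DMSO 24 h libraries for 18. Nutrient lists gave FER3 and FER4 (ferritins, 1.64 and 1.18), SPX1 and SRG3 (phosphate starvation genes, 1.45 and 1.89) higher and the sulphur starvation gene SDI1 lower, with 2.21 and 2.17 FPKM in AMF4 72 h leaves and 11 and 12.9 FPKM in AMF4 24 h leaves (-2.02 ± 0.30, adjusted p = 0.000799 in limma). SRG3 had 9.59 and 0.991 FPKM in AMF4 72 h leaves and 0.288 and 0.196 FPKM in AMF4 24 h leaves, and was called in 1 of the 4 fits that left out an AMF4 library, SPX1 and FER4 in 2 and 1 of them, and FER3 in none. The starch breakdown gene BAM3 (AT4G17090), a chloroplast beta-amylase, was called higher at 291 and 307 FPKM in AMF4 72 h leaves and 112 and 125 FPKM in AMF4 24 h leaves, the 24 h values being below the 237 to 497 FPKM of DMSO leaves, and the maltose exporter gene MEX1 was called lower (-1.06 ± 0.24). With 1 AMF4 library left out, BAM3 was called in none of the 4 fits (adjusted p of 0.0531 to 0.105 in limma) and MEX1 in 1. ASN1, an asparagine synthetase gene induced in low sugar, was called higher, with 7.57 and 1.58 FPKM in AMF4 72 h leaves and 0.648 and 0.28 FPKM in AMF4 24 h leaves, and LTP5 was called higher by 1.29. Both were called only in the fit without AMF4 72 h replicate 2, with an ASN1 change of 0.83 (adjusted p = 0.318 in limma) without replicate 1. Lists of proline and raffinose metabolism (10 genes), senescence (12), cell division (17), aquaporins (17), cuticular wax (11), glucosinolate synthesis (16) and lysine and branched-chain amino acid breakdown (9) held no call, although 2 aquaporin genes were called higher without AMF4 72 h replicate 2.

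The change in AMF4 leaves was also set against that in leaves with AMF1β, the related compound, at the same dose and times (2 libraries at 72 h and 3 at 24 h). No gene was called in the difference by limma, while 899 passed an unadjusted p under 0.05, and up to 12 were called with a single library left out. The median AMF1β change was 0.72 for the genes called higher and -0.93 for those called lower in AMF4 leaves. For DOGT1 the AMF4 change exceeded that of AMF1β by 2.26 (95% interval 1.28 to 3.25, adjusted p = 0.287 in limma), and for EXPA16 the difference was -1.36 (95% interval -2.51 to -0.21, adjusted p = 0.921 in limma).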

How the data were processed

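Leaf RNA of sprayed plants had been sequenced on an Illumina HiSeq2500. According to the submitters' processing notes, the authors used TopHat2, Cufflinks and the TAIR10 genome (tool versions: not given in the sources used here), and deposited a table of FPKM per gene and library, which holds no read totals. Depth was therefore compared only in relative terms, and the strand setting of the counting was not found in the labels or methods. No column was without a sample, and no pair of libraries held identical values.

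Values were analysed as log2(FPKM + 1) over genes with a value of 1 FPKM or higher in 2 or more of 29 libraries, with limma 3.58.1 in R 4.3.3: a mean for each of 12 groups, moderated variances with a trend, and Benjamini-Hochberg adjustment over all 18521 genes. Calls needed an adjusted p under 0.05 and a log2 difference above 1 or below -1. The fit was tested on simulated data in which each gene had the same spread in all groups, so that equal spread itself was not tested. DMSO 72 h had 1 library, assumed to vary like the other groups. The study's methods call the RNA-seq replicates biological and do not say whether they came from separate sprays; a p-value here reflects library-to-library spread. Genes were named by a rule: the 15 with the largest called change per direction that have a symbol, the 5 per direction with the largest called difference from DMSO and from AMF1β, the ABA response genes the study followed, and members of 33 lists; genes without a symbol, the 3 genes called in DMSO plants and members of added lists were chosen after their values were seen. Members and lists were chosen with earlier results of these data known, and 4 lists (endoplasmic reticulum folding, UGT73, tau GST and WRKY genes) and 2 alternatives were added after the values were seen. Of the 19 tau GST genes measured, GSTU1 and GSTU7 were called, both higher. Alternatives were another pseudocount (0.1), other filters, 2 scalings, fewer libraries, no trend, the replicate number as a block and each library left out. Promoter windows were the 250 bases before each gene start in RefSeq's TAIR10.1 annotation, and 32817 genes of the table were matched to it. ABA plants and the 6 h libraries entered none of the comparisons between groups. They entered the filter on low values, the scalings, the estimate of the spread and the median depth, and 6 h levels are given for ELF4.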

Additional observations from a re-analysis of the deposited data

Results flagged for a closer look

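For 17 genes, the 72 h minus 24 h change in AMF4 plants differed from that in DMSO plants by limma's test of the difference itself (values below are that difference on the log2(FPKM + 1) scale; the DMSO change rests on 1 library at 72 h). Upward differences were found for AT4G08555 (6.54), AT2G41730 (5.01), DOGT1 (4.64), AT2G36792 (4.34), UGT75B1 (3.41), GSTU1 (3.39), RAP2.9 (3.36), AT5G46710 (2.69), AT1G76520 (1.80) and AT1G72940 (1.65). Downward differences were found for AGL67 (-3.92), EXPA16 (-3.39), AT5G45690 (-3.21), EM6 (-2.53), RL1 (-2.15), MGP (-1.60) and NRP2 (-1.42).

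All 10 upward genes were themselves called higher at AMF4 72 h. Of the 7 downward ones, EXPA16, AT5G45690, EM6 and NRP2 were called lower at AMF4 72 h, while AGL67, RL1 and MGP were not called in AMF4 plants. RL1 was listed at 0 in all 4 AMF4 libraries and at 5.92 FPKM in the DMSO 72 h library, against 0.899, 0 and 0.986 FPKM in the DMSO 24 h libraries. AGL67, a MADS-box gene, was listed at 0 in both AMF4 72 h libraries and at 0 and 6.99 FPKM in the AMF4 24 h libraries, and at 4.37 FPKM in the DMSO 72 h library and 0 in the 3 DMSO 24 h libraries, so that each nonzero value is a single library. MGP, a zinc finger gene, had 0.0641 and 0.2 FPKM at AMF4 72 h and 0.457 and 0.204 FPKM at AMF4 24 h, with 3.36 FPKM in the DMSO 72 h library and 0.571, 0.927 and 0.578 FPKM in the DMSO 24 h libraries.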

How the results depend on the processing

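Of the called genes that were named or in lists, none changed direction between the AMF4 times under the alternatives run, but counts moved. For AMF4 72 h against 24 h (681 genes), counts of 536 to 834 were found with another pseudocount, other filters, scalings, no trend, libraries of 24 and 72 h only, or AMF4 6 h replicate 1 left out (chosen after seeing the data), 66 with only the 4 AMF4 libraries and 2498 when a 2-fold change of mean FPKM was used with no test. Leaving out 1 library gave 134 to 705. For DMSO (3 genes, all higher), log2(FPKM + 0.1) gave 1 higher and 2 lower, with 1 gene shared, 10 were called with no filter, 1 with libraries of 24 and 72 h only, 6 without a trend and 18 with DMSO 24 h replicate 2 as the only 24 h library (chosen after seeing the data), and 1 to 4 with 1 library left out.

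For the difference between the AMF4 and DMSO changes (17 genes), 4 were called with log2(FPKM + 0.1), 11 with no filter, 8 with a mean of at least 1 FPKM, 6 after quantile normalization, 1 with libraries of 24 and 72 h only (none of the 17), 14 with only the 8 AMF4 and DMSO libraries (3 of the 17), 6 without a trend, 3 without AMF4 6 h replicate 1 and 8 with DMSO 24 h replicate 2 alone (both chosen after seeing the data), and 3 to 13 with 1 library left out. For the difference from AMF1β (0 genes) 0 to 12 were called with 1 library left out and 0 otherwise. The causes were not tested.

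Replicate numbers are shared across groups in the labels. The difference between replicates 1 and 2 correlated at -0.246 to 0.0905 over 10 pairs of 24 and 72 h groups. Between the AMF4 groups the correlation was 0.0426. Same-numbered samples thus did not deviate strongly in the same direction in these pairs. Other replicates were not in this check, and it cannot tell whether libraries shared a spray or a harvest. With the replicate number as a block, 688 genes were called for AMF4, 2 for DMSO, 7 for the difference from DMSO and 0 for that from AMF1β.

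With 2 libraries per AMF4 group the median SE was 0.235 on the log2 scale, and 739 further genes passed the adjusted p in limma with a difference of no more than 1. Of 95 called genes that were named or in lists, 37 were called without each AMF4 library in turn. DMSO 72 h has no replicate, and genes near 1 FPKM rest on few reads.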
